A study of Mus musculus with 6 samples.

Results

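The growth factors that a mouse oocyte sends to its follicle were followed in germinal vesicle (GV) oocytes, with BMP receptors and the KIT receptor and its ligand. These were 9 genes of the 17577 listed in the expression tables. The genes were chosen by name: Gdf9, Bmp15, Bmp6, Fgf8 and Oosp1, which encode secreted proteins of the oocyte, Bmpr2 and Bmpr1b, which encode BMP receptors, and Kit with its ligand Kitl. All 9 were found and all 9 passed the filter on low values, a mean of at least 1 FPKM (fragments per kilobase of transcript, scaled to the mapped fragments of the library) over the 6 libraries.

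Bnc1tr/tr and WT oocytes, each with 3 libraries, were compared on the C57BL/6 J strain at 12 weeks of age. The methods describe GV oocytes collected after an injection of the gonadotropin PMSG, without naming the sequenced oocytes. Bnc1tr/tr mice carry on both alleles a small frameshift deletion in exon 4 of Bnc1, which encodes the zinc finger protein basonuclin 1, and WT mice carry the intact gene. The allele is constitutive, so the somatic cells of the ovary carry it too, and the methods describe comparisons between littermates and cDNA made from a single oocyte. The study calls its replicates biological, but whether each oocyte came from a separate animal was not stated, so the p-values measure only the spread between these libraries.

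GDF9 and BMP15 are TGF-beta family ligands made by the oocyte, and they drive the growth of granulosa cells and the expansion of the cumulus. Both signal through the type II receptor BMPR2 on the somatic cells, BMP15 together with the type I receptor BMPR1B, and FGF8 acts with BMP15 to raise glycolysis in cumulus cells. In the other direction, granulosa cells make KIT ligand, and the KIT receptor on the oocyte passes its signal through PI3K and AKT to the transcription factor FOXO3, a route known for the activation and growth of follicles.

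The targeted gene, Bnc1, was at 9.04, 6.51 and 5.83 FPKM in Bnc1tr/tr replicates 1 to 3 and at 13.17, 12.54 and 16.23 FPKM in WT replicates 1 to 3. It fell by 0.89 on the log2 scale (SE 0.20, limma adjusted p = 0.0090). Depth estimated from the step between low values gave 13.2 to 17.1 fragments per FPKM and kilobase in Bnc1tr/tr and 14.9 to 21.4 in WT, so that 3 fragments on a transcript of 1 kb correspond to 0.14 to 0.228 FPKM. Between 15258 and 15736 genes were above 0 in Bnc1tr/tr and 13896 to 14576 in WT. The 15 oocyte markers summed to 7900 to 8824 FPKM in Bnc1tr/tr and 9252 to 11358 FPKM in WT, with 14 tested, 2 of them higher and 3 lower. FPKM values are relative to the library, so a change in the total RNA of an oocyte cannot be told apart from a change in the share of a gene.

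Gdf9 (chr11:53430774-53437904, plus strand, GRCm38.p6) was the most abundant of the 9 genes in both genotypes. It was at 2791.50, 1814.81 and 1932.53 FPKM in Bnc1tr/tr and at 2384.63, 2465.57 and 1182.56 FPKM in WT. The groups overlapped, and WT replicate 3 stood apart, at 0.488 of the mean of the other two WT libraries. The log2 fold change of Bnc1tr/tr over WT, on the log2(FPKM + 1) scale used for every fold change here, was 0.16 (SE 0.30, 95% interval -0.52 to 0.85, limma adjusted p = 0.72), and without WT replicate 3 it was -0.18. The data therefore set a wide interval on Gdf9 and no direction.

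Bmp15 (chrX:6314054-6320724, minus strand), the X-linked partner of GDF9, was at 1242.98, 1093.36 and 1390.99 FPKM in Bnc1tr/tr and at 1064.67, 775.60 and 717.68 FPKM in WT. Every Bnc1tr/tr library lay above every WT library, by as little as 1.03 times between the nearest libraries. The log2 fold change was 0.56 (SE 0.20, 95% interval 0.10 to 1.01), and the limma adjusted p of 0.063 missed the threshold of 0.05. Without WT replicate 1, the highest WT library, it was 0.73 (adjusted p = 0.026), and with limma's trend and robust options the adjusted p was 0.039. Leaving out any other library gave an adjusted p of 0.077 to 0.19. The result depended on scaling over all detected genes. The log2 fold change was 0.28 (adjusted p = 0.27) with upper-quartile and 0.34 (adjusted p = 0.2) with median-ratio scaling. With quantile normalization it was 0.67 (adjusted p = 0.042). The 250 bases before the RefSeq start of Bmp15 (GRCm38.p6, chrX:6320725-6320974, minus strand) are shown because its groups did not overlap. Capitals mark the reverse of a TATA box, 155 bases before the start, and an E-box, 201 bases before it.
Bmp15: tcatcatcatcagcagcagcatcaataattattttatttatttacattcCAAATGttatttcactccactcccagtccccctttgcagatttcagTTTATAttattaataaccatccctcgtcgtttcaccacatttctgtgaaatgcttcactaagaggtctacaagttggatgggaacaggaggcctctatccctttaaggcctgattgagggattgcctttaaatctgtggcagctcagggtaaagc

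Oosp1 (chr19:11667460-11691051, minus strand) encodes oocyte secreted protein 1, and it lies beside Oosp2 and Oosp3 in a cluster of secreted protein genes of the oocyte. Oosp1 was at 1793.36, 1422.33 and 1819.14 FPKM in Bnc1tr/tr and at 1167.07, 1283.06 and 1375.84 FPKM in WT. The Bnc1tr/tr libraries were all the higher, with a log2 fold change of 0.39 (SE 0.17, 95% interval -0.0023 to 0.78, limma adjusted p = 0.12). The neighbour Oosp2 (chr19:11647284-11660559, minus strand) was at 1087.67, 1379.54 and 1359.71 FPKM in Bnc1tr/tr and at 1538.52, 1734.15 and 2733.55 FPKM in WT. For Oosp2 the Bnc1tr/tr libraries were all the lower, with a log2 fold change of -0.61 (SE 0.24, limma adjusted p = 0.080). Oosp3 (chr19:11697055-11711858, plus strand) was at 1105.62, 1017.02 and 1213.15 FPKM against 1104.23, 1222.23 and 1922.22 FPKM, and its groups overlapped. None of the 3 genes of the family passed the test.

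Within each library the ratio of Oosp1 to Oosp2 is free of any common scaling. That ratio was 1.65, 1.03 and 1.34 in Bnc1tr/tr and 0.759, 0.74 and 0.503 in WT. Oosp1 thus exceeded Oosp2 in all 3 Bnc1tr/tr libraries and in none of the WT libraries, with geometric means of 1.32 and 0.656 and an exact two-sided permutation p of 0.10, the smallest that 3 against 3 allows. This ratio was chosen after the values were seen. Oosp1 was already higher and Oosp2 lower in every Bnc1tr/tr library, so the p of the ratio was fixed by that choice. The stretch before the RefSeq start of Oosp1 that lies outside annotated exons (GRCm38.p6, chr19:11691151-11691301, minus strand) is shown for comparison with Bmp15, with E-boxes in capitals.
Oosp1: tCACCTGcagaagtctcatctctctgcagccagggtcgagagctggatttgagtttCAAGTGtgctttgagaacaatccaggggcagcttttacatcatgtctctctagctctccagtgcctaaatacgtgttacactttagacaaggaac

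Fgf8 (chr19:45736491-45742941, minus strand) was at 142.51, 131.03 and 91.97 FPKM in Bnc1tr/tr and at 119.31, 100.35 and 82.86 FPKM in WT. The groups overlapped, and the log2 fold change was 0.26 (SE 0.22, 95% interval -0.24 to 0.76, limma adjusted p = 0.40).

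Bmp6 (chr13:38345716-38500314, plus strand), a BMP ligand of the oocyte, was the one factor with lower values in the mutant. It was at 16.77, 16.39 and 17.82 FPKM in Bnc1tr/tr and at 20.23, 23.33 and 20.33 FPKM in WT. No library of one genotype reached the range of the other, and the ratio of the means was 0.798. The log2 fold change of -0.31 (SE 0.16, 95% interval -0.66 to 0.046) had a limma adjusted p of 0.17. The result depended on scaling: after upper-quartile scaling over all detected genes it was -0.57 (adjusted p = 0.025), whereas over the tested genes alone it was -0.44 (adjusted p = 0.062). Of the exonic bases of Bmp6, 5.74% lie under Txndc5 on the opposite strand, and strand was not stated for the counting.

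Bmpr2 (chr1:59764279-59878081, plus strand), the type II receptor for GDF9 and BMP15, was higher in the mutant. It was at 11.44, 14.75 and 15.06 FPKM in Bnc1tr/tr and at 8.06, 8.28 and 8.82 FPKM in WT. The lowest Bnc1tr/tr library was 1.3 times the highest WT library, and Bmpr2 rose by a log2 fold change of 0.64 (SE 0.17, 95% interval 0.26 to 1.03, limma adjusted p = 0.019). The call was lost without Bnc1tr/tr replicate 2 (adjusted p = 0.064) or replicate 3 (0.068), and without WT replicate 1 (0.053) or replicate 2 (0.071). It was also lost with each of the other scalings, and with upper-quartile scaling the log2 fold change was 0.39 (adjusted p = 0.14).

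Bmpr1b (chr3:141837135-142169585, minus strand), the type I receptor for BMP15, was at 38.10, 37.37 and 36.51 FPKM in Bnc1tr/tr and at 31.06, 35.42 and 28.27 FPKM in WT. The Bnc1tr/tr libraries were all the higher, the nearest libraries being 1.03 times apart, and the log2 fold change was 0.24 (SE 0.16, 95% interval -0.12 to 0.60, limma adjusted p = 0.29).

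Kit (chr5:75574987-75656722, plus strand), the receptor tyrosine kinase of the oocyte, was at 42.95, 36.81 and 39.55 FPKM in Bnc1tr/tr and at 27.81, 28.26 and 28.39 FPKM in WT. The WT libraries lay close together, and the lowest Bnc1tr/tr library was 1.3 times the highest of them. The log2 fold change was 0.48 (SE 0.15, 95% interval 0.13 to 0.83, limma adjusted p = 0.041), which passed on p and fell short of the fold change threshold of 0.5, so that Kit was not called. After upper-quartile scaling it was 0.21 (adjusted p = 0.32). The p was fragile too. Leaving out 1 library gave an adjusted p of 0.05 to 0.13, a pseudocount of 0.1 gave 0.053 and the replicate block 0.054. It stayed under 0.05 without the filter on low values (0.013), with a minimum mean of 5 FPKM (0.036) and with limma's trend and robust options (0.031). The sequence before the RefSeq start of Kit (GRCm38.p6, chr5:75574737-75574915, plus strand, outside annotated exons) is shown with its GC box in capitals.
Kit: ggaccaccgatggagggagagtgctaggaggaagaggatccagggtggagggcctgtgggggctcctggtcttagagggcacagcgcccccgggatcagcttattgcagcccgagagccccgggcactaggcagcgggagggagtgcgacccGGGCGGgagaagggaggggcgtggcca

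Kitl (chr10:100015615-100100416, plus strand), which encodes the ligand of KIT and is known as a product of granulosa cells, was the least abundant of the 9 genes. It was at 3.10, 1.94 and 2.33 FPKM in Bnc1tr/tr and at 1.13, 1.12 and 1.18 FPKM in WT. The lowest Bnc1tr/tr library was 1.64 times the highest WT library, and the means differed 2.15-fold. Kitl rose by a log2 fold change of 0.68 (SE 0.18, 95% interval 0.28 to 1.07, limma adjusted p = 0.018). The call was lost without Bnc1tr/tr replicate 1 (0.55, adjusted p = 0.062), without WT replicate 2 (0.67, adjusted p = 0.067) and with quantile normalization (0.23, adjusted p = 0.31). A stretch of 30 bases before one RefSeq start of Kitl (GRCm38.p6, chr10:100015776-100015805, plus strand), inside a transcript annotated to begin further upstream, is shown with overlapping GC boxes and a TATA box, 25 bases before the start, in capitals.
Kitl: GGGCGGGCGGgagggagctgTATAAAaagc

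RefSeq promoter windows were matched for 7 of the 9 genes. Only the first listed window of a gene was used, though Kit had 2 and Bmpr1b 3. The Bmpr1b window lay inside the span of its gene given above. The Bmp6 and Bmpr2 windows ended just before the gene starts given above. Transcripts of both genes are, however, annotated to begin at or before the start of these windows. None of these windows need be the main promoter of its gene. Their GC content over 250 bases was 70.8% for Kit, 69.2% for Kitl, 68.8% for Bmp6 and 64% for Bmpr2, against 40.4% for Bmp15, 46.8% for Bmpr1b and 49.2% for Oosp1, with a median of 52% over 27025 promoters. GC boxes (GGGCGG, both strands) were found in the Kit, Kitl, Bmpr2 and Bmp6 windows and in 32.9% of all promoters. TATA boxes (TATAAA, both strands) were found in the Kitl, Bmp15 and Bmpr1b windows and in 13% of all promoters. E-boxes (CANNTG) were found in the Bmp15, Oosp1, Bmp6 and Bmpr1b windows and in 66% of all promoters. These matches describe the letters in the windows.

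Markers of other ovarian cells were measured beside Kitl. The sum of the granulosa and cumulus markers was 50 to 68.3 FPKM in Bnc1tr/tr and 29.9 to 46.4 FPKM in WT, with 14 of 18 markers in the tables, 6 tested and 2 of them, Cyp11a1 and Fshr, higher. Fshr, the FSH receptor, was at 4.54, 5.83 and 5.37 FPKM against 0.31, 0.74 and 0 FPKM. Fshr thus passed the filter only through the mutant libraries, which fixes its direction. Cyp19a1, the aromatase, was at 27.49, 44.41 and 33.46 FPKM against 23.45, 28.98 and 17.41 FPKM, and its groups overlapped. Inha was at 0.18, 1.81 and 0.09 FPKM against 6.78, 3.45 and 0.04 FPKM. Nr5a2 was higher in every Bnc1tr/tr library, at 4.1 to 7.09 FPKM against 3.49 to 3.85 FPKM. Slc18a2 was lower in every one, at 2.9 to 3.65 FPKM against 4.45 to 7.28 FPKM, and neither was called. Among untested markers the means were lower in Bnc1tr/tr for Hsd17b1, Kctd14 and Runx2 and higher for Inhba. Foxl2, Wt1, Lhcgr and Has2 were at or under 0.14 FPKM in every library. Theca and stromal markers summed to 6.53 to 10.3 FPKM in Bnc1tr/tr and 1.73 to 2.27 FPKM in WT, with 7 of 11 in the tables and 1 tested. That 1 was Dcn, which was called higher and made up most of the sum in every library. It was at 6.46, 6.95 and 4.93 FPKM against 1.36, 1.48 and 2.02 FPKM. Endothelial, blood and immune markers summed to 5.44 to 65 FPKM in Bnc1tr/tr and 9.01 to 12.9 FPKM in WT. The sum of 65 was that of Bnc1tr/tr replicate 2 alone, with Lyz2 at 47.97 FPKM and Hba-a1 at 5.90 FPKM, while Pecam1, the one called marker of that list, fell by 1.02 on the log2 scale (limma adjusted p = 0.0048). Mast cell markers, which would mark another cell with high Kit, summed to at most 0.38 FPKM. Only 3 of these 6 markers were in the tables, without Cpa3, Mcpt4 and Tpsb2, and none was tested. The part of other cells in the Kitl result was not tested.

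**Figure D1:**
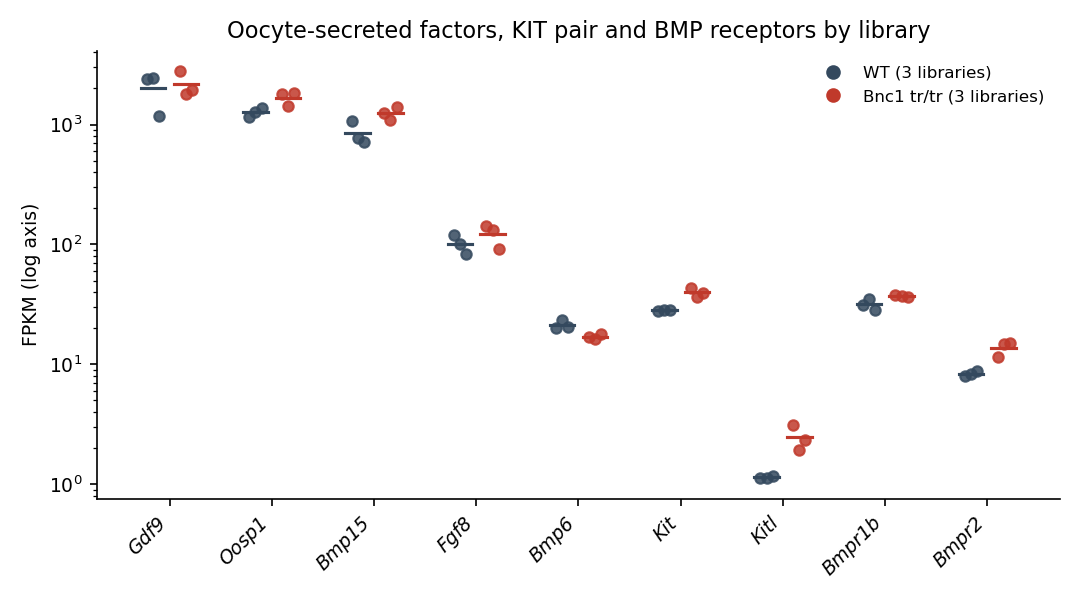
FPKM (log axis) of the 9 genes in each of the 3 WT and 3 Bnc1tr/tr libraries, with bars at the group means. The WT and Bnc1tr/tr points of Kit, Kitl and Bmpr2 stand apart, the Bmp6 points lie lower in Bnc1tr/tr, and the Gdf9 and Fgf8 points overlap.

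Of the 9 genes, 2 were called (Kitl and Bmpr2, both higher), beside 31.8% of the 10560 genes tested. In the higher direction the background was 24.1%, and in the lower direction, in which none of the 9 was called, it was 7.68%. At any fold change, 3 of the 9 had an adjusted p under 0.05, beside 32.1% of all genes tested. The groups did not overlap for 7 of the 9 genes, 6 higher and 1 lower, beside 46.8% of all genes. The share called among the 9 is no larger than the background. Their median log2 fold change was 0.39, beside 0.15 over all genes tested, and with upper-quartile scaling these medians were 0.11 and -0.094. Of all calls 75.8% were higher, and this share was 50.8% with upper-quartile scaling, 56% with median-ratio scaling and 48% with quantile normalization.

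**Figure D2:**
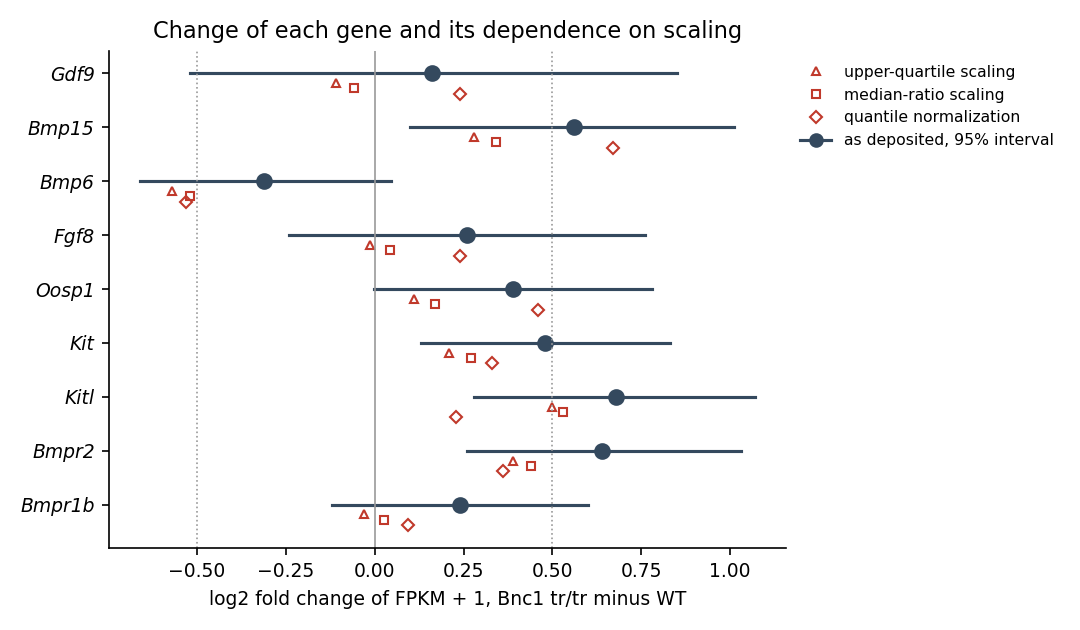
Log2 fold change of FPKM + 1, Bnc1tr/tr minus WT, for the 9 genes, with 95% intervals of the fit to the deposited values (filled circles) and the values after 3 other scalings over all detected genes (open symbols). Dotted lines mark the threshold of 0.5 in each direction. Bmp6 lies below 0 under all 4, while Bmpr2 lies above 0.5 as deposited and below it under the other scalings.

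Levels per length spanned from Gdf9, at rank 35 of the 17577 genes in WT, to Kitl, at rank 9423. In WT the order was Gdf9, Oosp1, Bmp15, Fgf8, Bmpr1b, Kit, Bmp6, Bmpr2 and Kitl, and the neighbours Gdf9 and Oosp1, and Bmpr1b and Kit, overlapped between libraries. In Bnc1tr/tr the order was Gdf9, Oosp1, Bmp15, Fgf8, Kit, Bmpr1b, Bmp6, Bmpr2 and Kitl, and the same neighbours overlapped. Oosp1 moved from rank 67 to rank 42 and Bmp15 from rank 123 to rank 65, whereas Bmp6 moved from rank 3441 to rank 4221.

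Ratios of the genes to each other within a library do not depend on a common scaling. The ratio of Gdf9 to Bmp15, the partners of a heterodimer, was 2.25, 1.66 and 1.39 in Bnc1tr/tr and 2.24, 3.18 and 1.65 in WT. The groups overlapped, with a log2 difference of -0.39 (exact two-sided permutation p = 0.50, the smallest possible being 0.10). The ratio of Kit to Gdf9 was 0.0154, 0.0203 and 0.0205 in Bnc1tr/tr and 0.0117, 0.0115 and 0.024 in WT, a log2 difference of 0.33 (exact permutation p = 0.40). Leaving out 1 library moved the Gdf9 to Bmp15 difference to between -0.15 (without WT replicate 2) and -0.63 (without WT replicate 3). It moved the Kit to Gdf9 difference to between 0.15 (without WT replicate 2; 0.16 without WT replicate 1) and 0.68 (without WT replicate 3). The ratio of Kit to Bmp6, chosen after the values were seen, was 2.56, 2.25 and 2.22 in Bnc1tr/tr and 1.37, 1.21 and 1.4 in WT, a log2 difference of 0.82 (exact permutation p = 0.10, the smallest possible). Kit was already higher and Bmp6 lower in every Bnc1tr/tr library, so this p was fixed by the choice.

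Around these genes, 13 lists of ligands, receptors and signalling genes held 181 genes other than the 9, of which 155 were in the tables and 95 were tested. By the same test 33 rose and 1 fell, with a median log2 fold change of 0.37. These lists share libraries and scaling with the 9 genes. These 34 are 35.8% of the genes tested in the lists, and the 33 are 34.7%, beside 31.8% and 24.1% over all genes. Of the 33, 8 had a WT mean under 1 FPKM and so passed the filter only through the mutant libraries, which fixes their direction. These were Bmp3, Bmp4, Bmp7, Bambi, Id1, Spred2, Dusp6 and Etv5, and the counts of their lists are descriptions that include them. With quantile normalization over all detected genes 15 were called lower and 21 higher, and over the tested genes 16 and 20.

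The SMAD target genes held the largest differences. Id3, an inhibitor of basic helix-loop-helix factors and a classical target of BMP signalling, was at 365.77, 193.57 and 215.16 FPKM in Bnc1tr/tr and at 7.61, 10.68 and 1.82 FPKM in WT. Its relative Id2 was at 122.68, 107.91 and 82.29 FPKM against 3.44, 5.72 and 3.72 FPKM. No library of one genotype came near the other, and the log2 fold changes were 5.24 for Id3 (SE 0.48, limma adjusted p = 6.9e-05) and 4.32 for Id2 (SE 0.22, limma adjusted p = 3.4e-06). Of 7 listed targets 3 were tested. The other was Id1, which also rose but passed the filter only through the mutant libraries, at 11.73, 5.09 and 9.59 FPKM against 0.75, 0.33 and 0.19 FPKM.

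Among the receptors, 1 of 5 tested rose. This was Bmpr1a, a type I BMP receptor, at 18.87, 23.27 and 20.50 FPKM in Bnc1tr/tr and 10.22, 10.35 and 11.32 FPKM in WT, a log2 fold change of 0.91 (SE 0.16, limma adjusted p = 0.0028). Of 9 tested SMAD genes and regulators 4 rose and none fell. Smad1, which carries the BMP signal, was at 9.39, 6.37 and 8.39 FPKM against 2.64, 3.49 and 3.38 FPKM (log2 fold change 1.11, SE 0.19, limma adjusted p = 0.0023). Smad3, which carries the activin and GDF9 signal, rose by 0.66 (SE 0.17, limma adjusted p = 0.019), and this call was lost with each of the other scalings and without Bnc1tr/tr replicate 1 or 3 or WT replicate 2 (adjusted p up to 0.13). The other two were Smad5 and the BMP pseudoreceptor Bambi, of which Bambi passed the filter only through the mutant libraries. The common partner Smad4 was at 7.33, 6.70 and 8.32 FPKM against 8.24, 8.06 and 9.01 FPKM (log2 fold change -0.16, adjusted p = 0.48), a gene named after its values were seen.

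**Figure D3:**
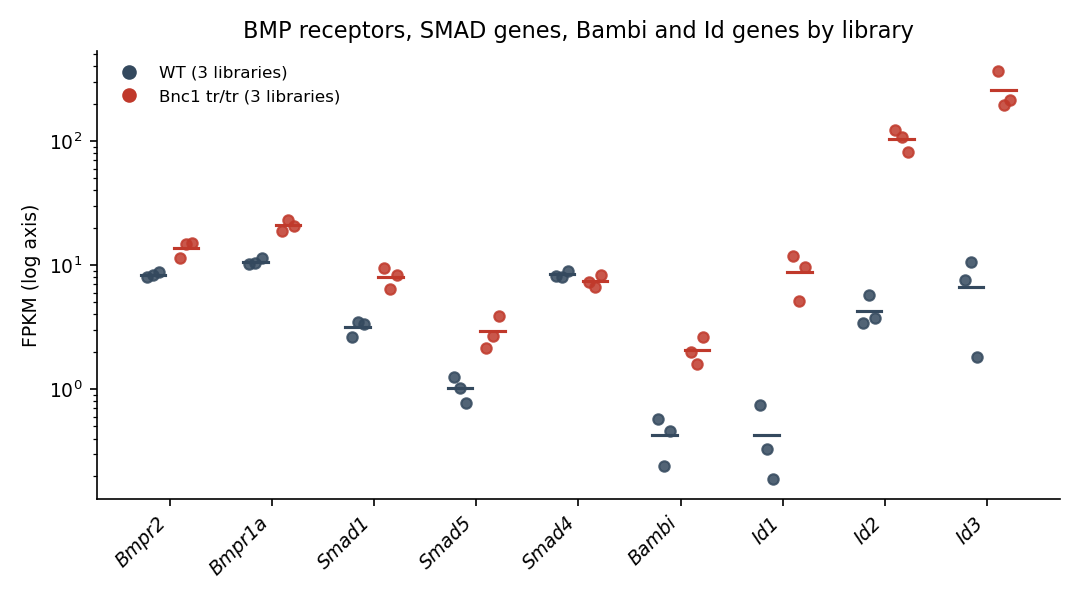
FPKM (log axis) of BMP receptor, SMAD and Id genes in each library, with bars at the means of 3 WT and 3 Bnc1tr/tr libraries. The Bnc1tr/tr points of Id2 and Id3 lie between 82.29 and 365.77 FPKM and the WT points at or under 10.68 FPKM, while the Smad4 points overlap.

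Of the other ligands of the TGF-beta family 18 were in the tables and 8 were tested, and 3 rose: Bmp3, Bmp4 and Bmp7. Each was at or under 0.15 FPKM in every WT library and between 1.09 and 3.77 FPKM in Bnc1tr/tr, and all were among the genes that passed the filter through the mutant libraries alone. The most abundant ligand of the list, Tgfb2, was at 122.69, 101.03 and 97.11 FPKM against 124.55, 121.54 and 99.76 FPKM, and its groups overlapped. The next, Bmp5, was at 78.59, 76.57 and 88.10 FPKM against 57.85, 68.63 and 73.04 FPKM, higher in every Bnc1tr/tr library (log2 fold change 0.29, limma adjusted p = 0.23). Both were picked after their values were seen. Of 3 antagonists tested 1 rose (Twsg1). Of 3 proprotein convertases, which cleave the ligands to their active form, Pcsk6 rose, from 2.26, 0.95 and 1.04 FPKM in WT to 12.06, 8.82 and 6.27 FPKM in Bnc1tr/tr (log2 fold change 2.06, SE 0.27, limma adjusted p = 0.00057).

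On the FGF side, 4 ligands other than Fgf8 were tested, of which Fgf1 and Fgf9 rose and Fgf7 fell. The Fgf1 call was narrow, with a log2 fold change of 0.63 and a limma adjusted p that rounds to 0.05. Fgf9 was at 9.42, 8.89 and 7.07 FPKM in Bnc1tr/tr and at 2.49, 2.58 and 2.92 FPKM in WT (log2 fold change 1.36, SE 0.17, limma adjusted p = 0.0004). Of 9 receptors and feedback genes tested 5 rose, among them Etv5, Dusp6 and Spred2, which passed the filter only through the mutant libraries. Etv5, an ETS factor induced by FGF signalling, was at 13.71, 14.40 and 15.95 FPKM against 0.54, 0.52 and 0.51 FPKM (log2 fold change 3.36, SE 0.15, limma adjusted p = 2.3e-06), though 30.3% of its 31-base words also occur in Gm4798, so its counts are uncertain. The receptor Fgfr2 was at 12.66, 12.86 and 11.80 FPKM against 4.63, 5.40 and 6.08 FPKM (log2 fold change 1.08, SE 0.16, limma adjusted p = 0.0012).

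Downstream of KIT, 6 of 13 proximal signalling genes rose. Ptpn6, a phosphatase that restrains KIT, was at 44.55, 29.57 and 28.82 FPKM in Bnc1tr/tr and 8.72, 8.32 and 7.38 FPKM in WT (log2 fold change 1.92, SE 0.20, limma adjusted p = 0.00016). Socs1, an inhibitor of cytokine signalling, was at 19.65, 11.52 and 9.57 FPKM against 8.98, 4.57 and 3.13 FPKM (1.19, SE 0.35, limma adjusted p = 0.03). Its call was lost without any 1 of Bnc1tr/tr replicates 1 and 2 and WT replicates 2 and 3. It was also lost with a pseudocount of 0.1, without the filter on low values and with both versions of quantile normalization (adjusted p up to 0.1 over all alternatives). The others were Adam17, Grb2 (limma adjusted p = 0.047), Fyn and Lyn. Adam17 encodes a protease that sheds receptors and ligands from the cell surface. Shc1 (-0.51), Gab2 (-0.50) and Grb10 (-0.47) were lower in every Bnc1tr/tr library and were not called. These genes were picked after their values were seen.

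In the PI3K, AKT and FOXO3 list 3 of 15 tested genes rose. Cdkn1b, a cell cycle inhibitor and FOXO target, was at 21.83, 21.63 and 20.12 FPKM against 7.03, 6.51 and 10.52 FPKM (log2 fold change 1.32, SE 0.20, limma adjusted p = 0.0011). Pik3r3, a regulatory subunit of PI3K, rose by 0.69 (SE 0.20, limma adjusted p = 0.025), with 23.7% of its 31-base words shared with Gm49337. Its call was lost without Bnc1tr/tr replicate 1 or 3 or WT replicate 2 or 3 (adjusted p up to 0.088) and with upper-quartile (0.095), median-ratio (0.067) and quantile scaling (0.083) over all detected genes. It was also lost with median-ratio and quantile scaling over the tested genes. Foxo1 also rose (log2 fold change 0.56, limma adjusted p = 0.041). Foxo3 itself was at 19.21, 15.42 and 19.02 FPKM against 21.98, 20.57 and 27.10 FPKM, lower in every Bnc1tr/tr library, with a log2 fold change of -0.36 and a limma adjusted p of 0.16. It was named after its values were seen.

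Of 10 tested TSC and mTORC1 genes 1 rose, and the list median was 0.042. This was Eif4ebp1, a repressor of cap-dependent translation, at 36.36, 20.81 and 21.24 FPKM against 6.62, 3.46 and 4.29 FPKM (log2 fold change 2.22, SE 0.27, limma adjusted p = 0.00037). In the RAS and ERK cascade, the genes named by the rule were Hras, which rose by 0.82 (SE 0.24, limma adjusted p = 0.028), and the ERK target kinase Rps6ka3, which rose by 0.69 (SE 0.20, limma adjusted p = 0.029). Both the Hras and the Rps6ka3 calls were lost with each of the other scalings and without Bnc1tr/tr replicate 1 or 2 or WT replicate 2. That of Hras was also lost without the filter on low values, and that of Rps6ka3 without Bnc1tr/tr replicate 3 or WT replicate 1 (adjusted p up to 0.11 for Hras and 0.25 for Rps6ka3 over all alternatives).

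**Figure D4:**
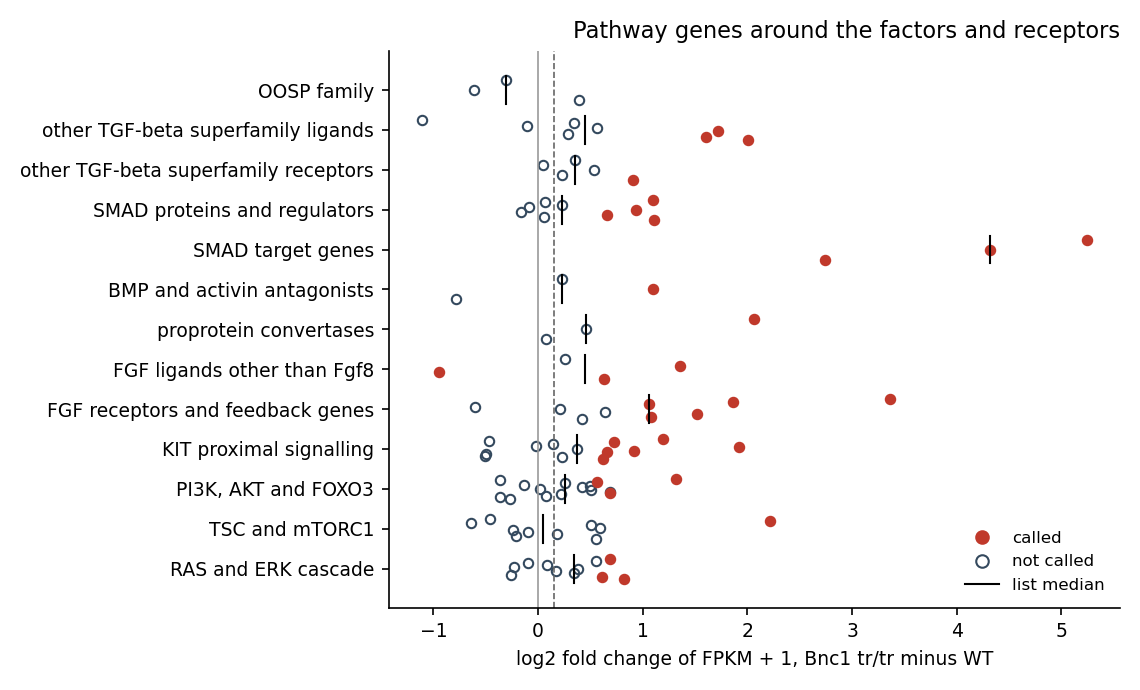
Log2 fold change of FPKM + 1, Bnc1tr/tr minus WT, of each tested gene in the 13 lists, with filled points for genes that passed the test, a short line at each list median and a dashed line at the median of all genes tested, 0.15. The Id genes and Etv5 lie furthest to the right and Fgf7 is the one called gene on the left.

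Genes with the most similar pattern over the 6 libraries were found by the root mean square difference of centred log2(FPKM + 1) values among the 5282 genes whose mean reached 10 FPKM. For Gdf9 these were Gramd1c (0.079), Stat3 (0.09) and P4hb (0.092), and Stat3, at 14.53, 10.61 and 10.39 FPKM in Bnc1tr/tr and 14.96, 13.33 and 6.38 FPKM in WT, shared the low value in WT replicate 3. The nearest to Bmp15 were Pik3c2a (0.059), Ctcf (0.061) and Zfp280d (0.07), and the nearest to Oosp1 were Usp1 (0.031), Usp38 (0.045) and Snrpg (0.051). Etf1 (0.044), Epc1 (0.045) and Aasdhppt (0.048) were nearest to Kit. Those nearest to Bmp6 were Hibadh (0.044), Vti1a (0.044) and Elp5 (0.048), and those nearest to Fgf8 were Zfp92 (0.048), Dph7 (0.063) and Zkscan14 (0.074).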

How the data were processed

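Per the labels, 6 oocyte libraries, 3 Bnc1tr/tr and 3 WT, were grouped by genotype. The authors deposited FPKM values per gene and library, and the submitters' processing notes name HISAT2 2.0.4, Bowtie2 2.2.5, RSEM 1.2.12 and GRCm38.p6 without roles. The deposited values hold 2 decimals and no counts, and depth was estimated from the step between values of low genes. Genes averaging 1 FPKM or more over the 6 libraries were fitted as log2(FPKM + 1) with limma 3.58.1 (R 4.3.3), unpaired, with Benjamini-Hochberg adjustment over all 10560 genes, and called where the adjusted p was below 0.05 and the log2 fold change exceeded 0.5 in either direction. A pseudocount understates changes of low genes. The fit was tested on simulated data. Ratios used exact permutation tests (SciPy 1.17.1). The members and lists were chosen with earlier results of these data known.

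From each list the text names the most changed of the called genes that averaged 5 FPKM or more, at most 2 per direction, besides genes that fall under a count of 5 or fewer or are said to be chosen after their values were seen. Alternatives were another pseudocount, filters, upper-quartile, median-ratio and quantile scaling, limma's trend and robust options, no fold change threshold, a replicate block and leaving out each library. Scaling factors were first computed over all genes detected in any library. They were then also computed over the tested genes, after the first results had been seen, and both are reported. Promoter windows are from RefSeq (GRCm38.p6). One gene of the RAS and ERK cascade list, and the count of that list, are not reported here.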

Additional observations from a re-analysis of the deposited data

How the results depend on the processing

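The results rest on 3 libraries per genotype and on FPKM without counts, and Kitl, near 1 FPKM in WT, sits close to the filter. Of 161 values of the 9 genes under the alternatives, 131 kept their direction and side of the threshold, 14 lost the call, 9 gained one and 7 reversed. Gdf9 reversed with upper-quartile (-0.11) and median-ratio scaling (-0.057, and -0.022 over the tested genes), and leaving out 1 library gave -0.18 to 0.35, below 0 without Bnc1tr/tr replicate 1 (-0.027) or WT replicate 3 (-0.18). Fgf8 (-0.012) and Bmpr1b (-0.029) reversed with upper-quartile scaling. The causes were not tested. The 2 calls among the 9 genes became 1 with a minimum mean of 5 FPKM, where Kitl was not tested, and 0 to 2 when 1 library was left out. None was called without WT replicate 2.

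The choice of genes for the scaling, made a second time after the results had been seen, changed a call. Bmp6 was called lower with upper-quartile (-0.57, limma adjusted p = 0.025) and median-ratio scaling (-0.52, adjusted p = 0.034) over all detected genes, and was not called over the tested genes (-0.44 and -0.48, adjusted p = 0.062 and 0.044), where 1 of the 9 genes, Kitl, was called. Under quantile normalization Bmp6 (-0.53) and Bmp15 (0.67) were called in both versions. Over all genes, 3358 calls became 2046 with a minimum mean of 5 FPKM, where fewer genes were tested, and the pathway calls went from 34 to 21.

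With the replicate number as a block, Bmpr2 and Kitl were again the members called, and 2781 genes were higher and 952 lower over the whole table. The labels do not say that the numbers pair the libraries, and deviations of same-numbered libraries correlated at 0.2778, -0.03441 and 0.1244, and not every library correlated best with its own number. Of 288 values of the 16 named pathway genes, 241 kept their call, 47 lost it and none reversed. The 16 were picked as the most changed called genes of the main fit, so this tally partly follows from that choice. Etv5, whose direction was fixed by the filter, is among them.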
